A study of Drosophila melanogaster with 399 samples.

Results

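Camta RNAi embryos are Drosophila melanogaster embryos in which a short hairpin against Camta, the single fly calmodulin-binding transcription activator, was expressed throughout the body. Their 3 libraries are those titled for Camta at 16–18 hours and at 12–14 hours after egg laying, 2 and 1 libraries in that order, of 399 libraries in the whole series (271 of knockdowns and 128 of controls). They were set against 4 mCherry libraries, 2 at each window, from the control set named for Fer1, Camta and CG10209. The question was which transcripts depend on this factor at the window when its transcript had been reported to peak (12–14 hours) and at the late window shared by all knockdowns (16–18 hours).

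Males homozygous for the shCamta hairpin, in the Valium20 vector of the Transgenic RNAi Project, were crossed to females with a da-Gal4 driver on 2 chromosomes, so that daughterless drove the hairpin in all cells of the progeny. The controls carried the same driver and a hairpin against mCherry, a fluorescent protein with no counterpart in the fly genome. A single hairpin line was used, so an effect of losing Camta, an effect of the hairpin on other transcripts and a difference between the parental strains cannot be told apart. Each library was polyadenylated RNA of whole embryos, in which fewer cells of a type and less RNA per cell cannot be told apart. Nothing states whether replicates came from separate crosses, so p-values measure the spread between these libraries.

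CAMTA proteins bind DNA through a CG-1 domain, carry ankyrin repeats, and bind calmodulin, the small calcium sensor that passes calcium signals to kinases, phosphatases and channels. They are best known from plants, where they act in responses to cold and to pathogens. In the fly, Camta is known from the photoreceptor, where it promotes Fbxl4 expression and so the switching off of rhodopsin signalling.

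The 7 libraries held 35619048 to 56118924 counts on genes each, and 12700 to 13239 genes had at least 1 count. Transcripts of neurons, muscle, midgut, trachea, haemocytes and glia were present in all 7, so they are those of whole late embryos. Over 11965 genes, the 2 Camta RNAi libraries at 16–18 hours correlated at r = 0.996 on the log2 scale, against 0.997 for the 2 mCherry libraries of that window, a description across genes with no test. CPM values are counts per 1000000 counts on genes, with the 7 libraries scaled jointly. A gene was called where its adjusted p was at most 0.1 and its log2 fold change was 0.5 or more in size.

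Camta fell by 48.8% at 16–18 hours and by 45.9% at 12–14 hours in embryos that expressed the hairpin against it. At 16–18 hours Camta (chromosome arm 2R, 9446046 to 9480076) stood at 21.2 and 28.0 CPM in Camta RNAi embryos, against 45.2 and 50.5 CPM in mCherry embryos. The Camta RNAi library of 12–14 hours had 31.0 CPM, against 53.8 and 60.9 CPM in the mCherry libraries of that window. The groups did not overlap at either window. The log2 fold change was −0.97 (SE 0.14, adjusted p = 0.00948) at 16–18 hours and −0.89 (SE 0.12, adjusted p = 3.77e-05) at 12–14 hours. The 12–14 hour call rests on the spread between 2 control libraries, and it was lost when both windows shared 1 fit (adjusted p = 0.115).

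Against the rest of the series the residual Camta level was low but not outside the range of other libraries. On a scale common to all 399 libraries, the Camta RNAi libraries of 16–18 hours had 21.8 and 28.7 CPM, and 3 of 88 other knockdown libraries and 1 of 42 control libraries of that window were at or below 28.7 CPM. The 12–14 hour Camta RNAi library, at 31.8 CPM, was below all 24 other knockdown libraries (50.7 to 110 CPM) and all 10 control libraries (53.9 to 78.8 CPM) of its window. The transcript was present at a similar level through the whole course in controls, with medians between 54.4 and 82.9 CPM over 8 windows and the highest of them at 0–1.5 hours. Fer1 and CG10209 RNAi embryos of 16–18 hours, which share the mCherry libraries with Camta RNAi embryos, had log2 fold changes of Camta of −0.04 (adjusted p = 0.941) and 0.73 (adjusted p = 0.00370). Against those 2 other knockdowns, Camta was lower by 1.31 on the log2 scale in Camta RNAi embryos (adjusted p = 0.000533).

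**Figure D1:**
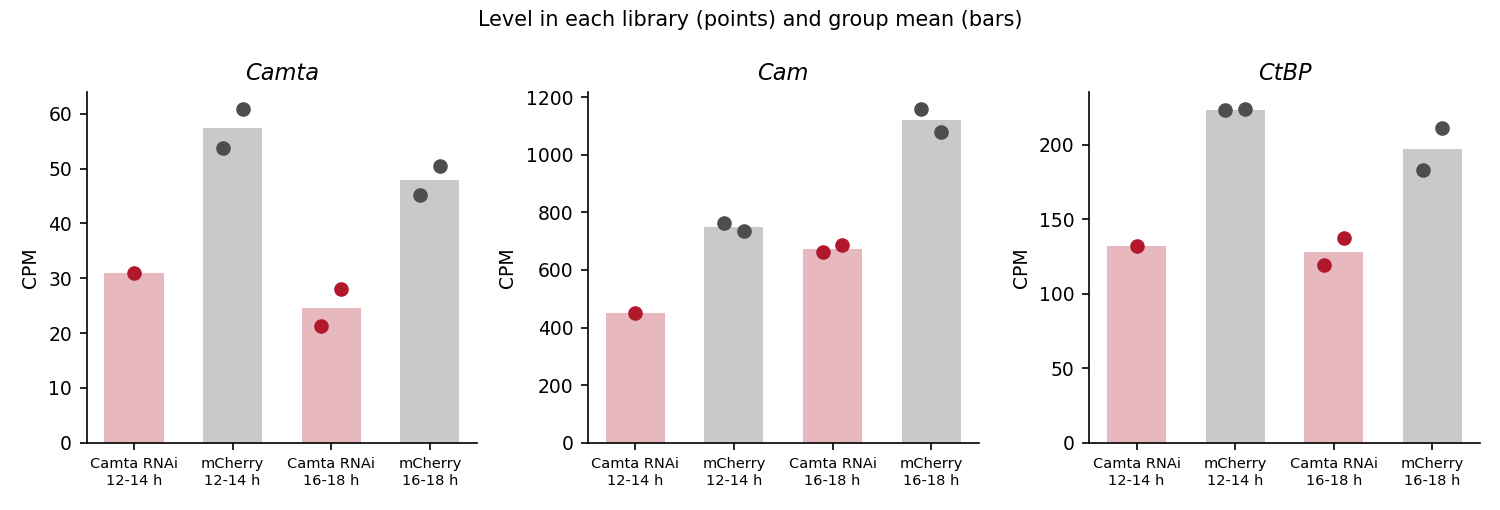
Level of Camta, Cam and CtBP in CPM (vertical axes from 0) in each Camta RNAi and mCherry library at 12–14 and 16–18 hours. Points are libraries and bars are group means, and at both windows every Camta RNAi library lies below both mCherry libraries for the 3 genes.

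Calmodulin itself fell with Camta. Cam, the single fly gene for calmodulin (2R, 12259398 to 12278809), had 661 and 687 CPM in Camta RNAi embryos at 16–18 hours, against 1159 and 1079 CPM in mCherry embryos. The level of Cam at 12–14 hours was 450 CPM in the Camta RNAi library, against 764 and 737 CPM in the mCherry libraries. Every Camta RNAi library was below every mCherry library of its window, at about 60.0% and 60.1% of the control level at 16–18 and 12–14 hours. The log2 fold change was −0.74 at both windows, with an SE of 0.08 (adjusted p = 0.00252) at 16–18 hours and an SE of 0.15 (adjusted p = 0.00724) at 12–14 hours, and no difference in the effect between the windows was detected (0.01, SE 0.14, adjusted p = 1.00).

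This decrease stood apart from the other knockdowns of the series. On the scale of all libraries, Cam had 680 and 705 CPM in Camta RNAi embryos of 16–18 hours, against 769 to 2735 CPM in 88 other knockdown libraries and 912 to 1965 CPM in 42 control libraries. The Camta RNAi library of 12–14 hours had 461 CPM, against 713 to 1284 CPM in 24 other knockdown libraries and 755 to 1188 CPM in 10 control libraries. Cam was called lower in none of the 44 other knockdowns with a comparison at 16–18 hours. In Fer1 and CG10209 RNAi embryos, set against the same mCherry libraries, its log2 fold changes were 0.08 (adjusted p = 0.869) and 0.64 (adjusted p = 0.00592). Against these 2 knockdowns directly, Cam was lower by 1.10 on the log2 scale in Camta RNAi embryos (SE 0.09, adjusted p = 0.000417).

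**Figure D2:**
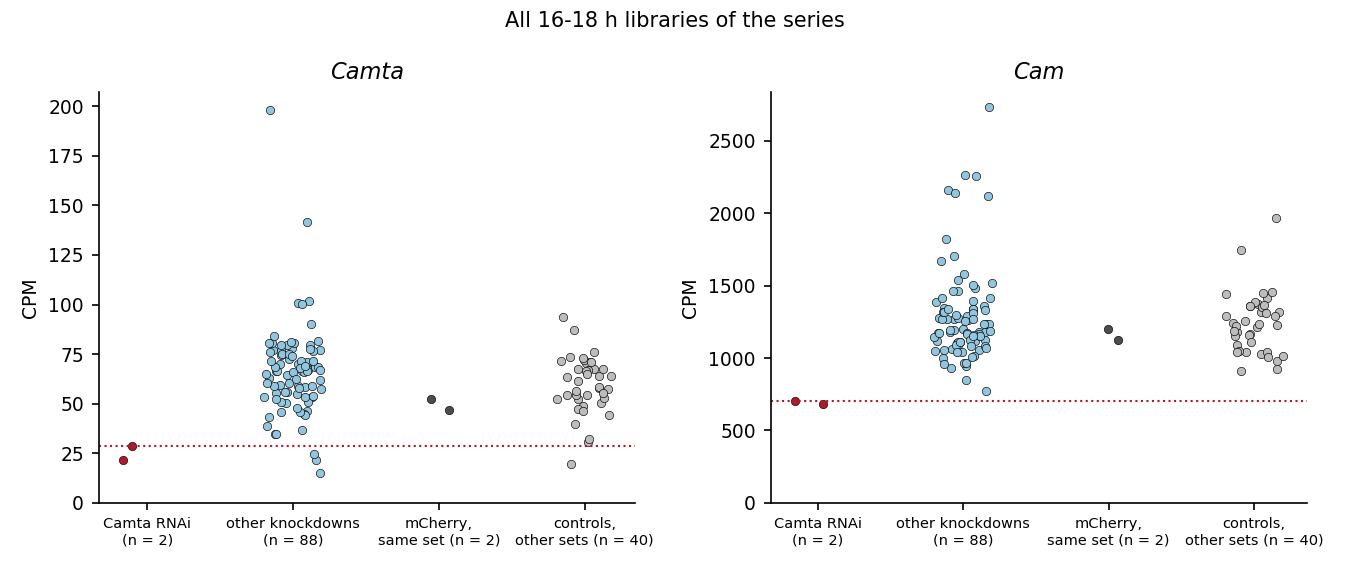
Level of Camta (left) and of Cam (right) in CPM on the scale of all 399 libraries, for every library of 16–18 hours, in columns for Camta RNAi, the other knockdowns, the mCherry controls of the same set and the controls of other sets, with a dotted line at the higher Camta RNAi library. Cam in the Camta RNAi libraries (680 and 705 CPM) lies below every other library, while Camta itself (21.8 and 28.7 CPM) has 3 other knockdown libraries and 1 control library at or below its higher value.

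CtBP, the C-terminal binding protein that acts as a transcriptional corepressor, also fell, and is named here because of its values and not by the rule for named genes. CtBP (3R, 13011649 to 13026275) had 119 and 137 CPM in Camta RNAi embryos at 16–18 hours, against 183 and 211 CPM in mCherry embryos. The level of CtBP at 12–14 hours was 132 CPM in the Camta RNAi library, against 223 and 224 CPM in the mCherry libraries. The groups did not overlap, and at both windows the Camta RNAi libraries lay below all control libraries of the series. The log2 fold changes were −0.62 (SE 0.10, adjusted p = 0.0183) at 16–18 hours and −0.76 (SE 0.12, adjusted p = 0.000331) at 12–14 hours. Without Camta RNAi replicate 1 the value at 16–18 hours was −0.52 and was no longer called (adjusted p = 0.106).

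On a list of calcium and calmodulin signalling genes, none but Camta and Cam was called against mCherry. The list does not hold every gene of calcium signalling. Of 27 tested genes of calcium and calmodulin signalling, 2 were called lower at each window, Camta and Cam themselves, and 25 were not called, against 3.10% of 11060 genes called at 16–18 hours and 1.76% of 11667 genes called at 12–14 hours. The median log2 fold change of the list was −0.004 at 16–18 hours and −0.007 at 12–14 hours, beside −0.0005 and −0.007 over all tested genes. Among the members not called, the calmodulin-dependent kinases CaMKI and CaMKII had values of −0.004 and 0.10 at 16–18 hours. The calcium release channels Itpr and RyR had −0.14 and −0.20, and the calcium pumps SERCA and PMCA −0.12 and −0.19, in the same comparison. Set against Fer1 and CG10209 RNAi embryos of 16–18 hours, 8 of the 27 were called lower in Camta RNAi embryos, Camta and Cam included, with 25 of 27 values below 0 and a median of −0.36, beside 4.04% of all genes called lower. CaMKII was among the 8 (−0.64, adjusted p = 0.00588). Lower values in that comparison were not particular to this list. Of 20 neuronal genes 8 were called lower there, with all 20 values below 0 and a median of −0.44. Against mCherry at 16–18 hours none of those 20 was called, and their median was 0.02.

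Fbxl4, the F-box gene through which Camta acts in the photoreceptor, was not called either. It had 17.7 and 15.7 CPM in Camta RNAi embryos at 16–18 hours, against 14.98 and 17.49 CPM in mCherry embryos. Fbxl4 at 12–14 hours had 17.4 CPM in the Camta RNAi library, against 19.8 and 18.9 CPM in the mCherry libraries. The groups overlapped at 16–18 hours, and the log2 fold changes were 0.04 (SE 0.12, adjusted p = 0.934) at 16–18 hours and −0.15 (SE 0.13, adjusted p = 0.926) at 12–14 hours. None of the 20 tested genes of the phototransduction list was called at 16–18 hours and none of 21 at 12–14 hours by edgeR or DESeq2, and 1 gene at each window had an unadjusted p under 0.05. Among all tested genes edgeR called 3.10% at 16–18 hours and 1.76% at 12–14 hours, so a list this short may hold none. Several of them, such as the rhodopsin gene ninaE at 0.02 CPM in 1 of the control libraries, were barely expressed in embryos.

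Across all genes, 343 of 11060 tested genes were called at 16–18 hours (3.10%), 176 higher (1.59%) and 167 lower (1.51%) in Camta RNAi embryos. In the 12–14 hour comparison of 1 library with 2, 205 of 11667 were called (1.76%), 103 higher (0.883%) and 102 lower (0.874%). DESeq2 called 83 genes at 12–14 hours, all of them among the 205. Of the 44 other knockdowns at 16–18 hours 11 had more calls than Camta, and at 12–14 hours 4 of 12 did. With Camta counted in, the medians were 7 calls over 45 comparisons at 16–18 hours and 110 over 13 at 12–14 hours. The 2 knockdowns with the same controls had 48 (Fer1) and 2724 (CG10209) calls at 16–18 hours.

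The windows shared a set of genes that moved the same way. Of 325 genes called at 16–18 hours and tested at both windows, 261 (80.3%) had the same direction at 12–14 hours, beside 63.1% of all 10865 genes tested at both. Called at both windows were 70 genes, 39 higher and 31 lower, each in the same direction both times. They were 21.5% of the genes called at 16–18 hours and 36.1% of those called at 12–14 hours. The mCherry libraries of the 2 windows were different libraries of 1 control set. Of these 70 genes, 16 lay beyond every control library of the series at both windows, and 14 of the 16 were also called the same way against Fer1 and CG10209 RNAi embryos. The last comparison uses the same 2 Camta RNAi libraries of 16–18 hours. The 70 genes had been called against 2 of the control libraries at each window, and the share of all tested genes beyond every control was not computed. Neither count is thus an independent check. The 14 were Cam, CtBP, CG31808 and CG10943, which were lower, and nompB, eIF4E3, Cyp28d2, CG16704, CG31219, TwdlJ, CR43669, asRNA:CR44975, asRNA:CR46487 and lncRNA:CR46123, which were higher.

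**Figure D3:**
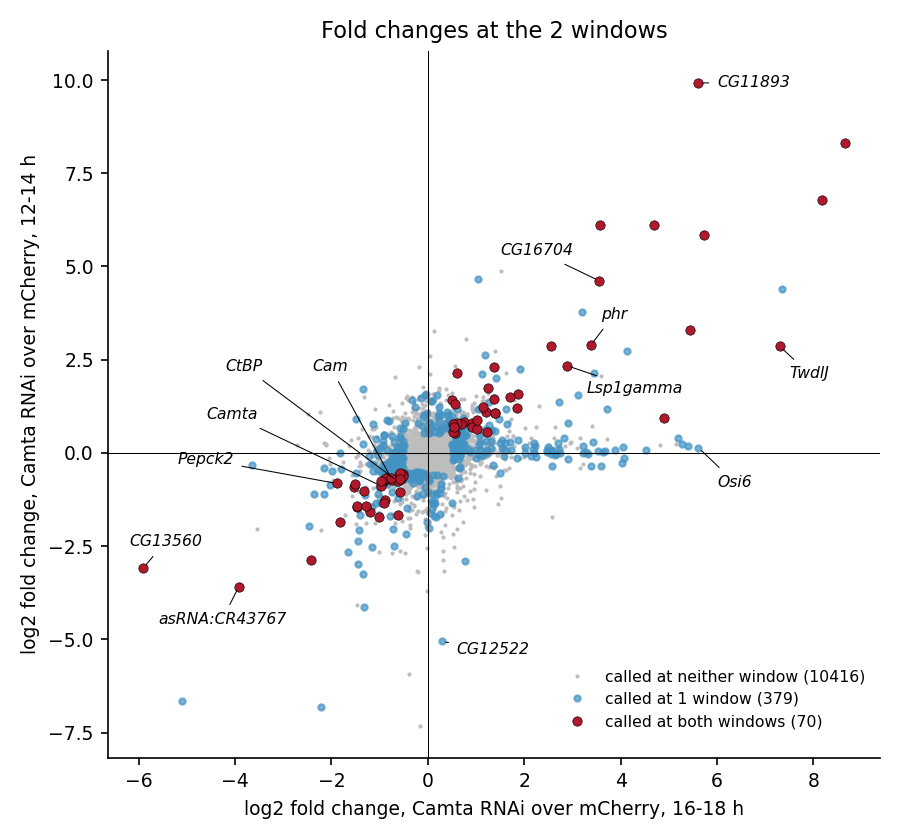
Log2 fold change of Camta RNAi over mCherry at 16–18 hours (horizontal axis) and at 12–14 hours (vertical axis) for the 10865 genes tested at both windows, with the 70 genes called at both in red, genes called at 1 window in blue, and some genes named. All 70 lie in the upper right (39 genes) or the lower left (31 genes).

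Averaged over both windows, 288 of 11965 genes were called (2.41%), 162 higher (1.35%) and 126 lower (1.05%) in Camta RNAi embryos, and 185 without Camta RNAi replicate 2 of 16–18 hours. That fit added 2 genes to those named by size, both with few counts. CR42546 had 20 counts in Camta RNAi embryos of 16–18 hours and 0 in mCherry embryos, at least 7.54-fold higher, and Parp16, of the family of poly-ADP-ribose polymerases, had 0 and 21 counts, at least 6.19-fold lower.

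Among the 39 genes higher at both windows were phr and eIF4E3. The photolyase gene phr, whose enzyme repairs ultraviolet-induced pyrimidine dimers, had 11.7 and 11.9 CPM in Camta RNAi embryos at 16–18 hours, against 1.07 and 1.19 CPM in mCherry embryos. The phr level of 12–14 hours was 11.1 CPM in the Camta RNAi library, against 1.43 and 1.56 CPM in the mCherry libraries. The level in Camta RNAi embryos was thus about the same at both windows and did not overlap the 2 mCherry libraries of each window. The log2 fold changes of phr were 3.38 (SE 0.18, adjusted p = 6.08e-05) and 2.89 (SE 0.24, adjusted p = 4.49e-09) at 16–18 and 12–14 hours. Over the whole series, phr lay above all 10 control libraries at 12–14 hours. At 16–18 hours its 2 Camta RNAi libraries did not both lie above all 42 control libraries. eIF4E3, a cap-binding translation initiation factor of the eIF4E family, had 66.0 and 63.7 CPM in Camta RNAi embryos at 16–18 hours, against 27.3 and 22.7 CPM in mCherry embryos. Its level at 12–14 hours was 40.9 CPM in the Camta RNAi library, against 13.7 and 16.5 CPM in the mCherry libraries. The log2 fold changes of eIF4E3 were 1.37 (adjusted p = 0.000512) and 1.44 (adjusted p = 1.11e-08) in the same order of windows. At 16–18 hours phr was also called higher in 5 and eIF4E3 in 7 of the 44 other knockdowns.

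Intraflagellar transport builds the sensory cilia of fly neurons, and 2 of its 24 tested genes were called at 16–18 hours, in opposite directions, beside 3.10% of all tested genes. Oseg4, a component of the transport complex, had 11.8 and 12.1 CPM in Camta RNAi embryos at 16–18 hours, against 32.2 and 35.9 CPM in mCherry embryos. Oseg4 at 12–14 hours had 10.1 CPM in the Camta RNAi library, against 18.5 and 17.5 CPM in the mCherry libraries. It fell by 1.52 on the log2 scale at 16–18 hours (SE 0.10, adjusted p = 0.000323) and by 0.83 at 12–14 hours (SE 0.15, adjusted p = 0.000974). Oseg4 was also called lower in 7 of the 44 other knockdowns of 16–18 hours. PIG-Wb, a gene of glycosylphosphatidylinositol anchor synthesis that begins 85 bases away on arm 3L, fell by 0.74 at 16–18 hours (adjusted p = 0.00286) and had −0.38 at 12–14 hours (adjusted p = 0.171). nompB, the fly counterpart of mammalian IFT88, had 4.79 and 4.52 CPM in Camta RNAi embryos, against 2.36 and 2.25 CPM in mCherry embryos, at 16–18 hours. Its log2 fold changes were 1.01 (adjusted p = 0.0528) and 0.87 (adjusted p = 0.0277), and leaving out any 1 of the 4 libraries took the 16–18 hour value to an adjusted p between 0.104 and 0.164. The median of the list was −0.09 at 16–18 hours and 0.03 at 12–14 hours, and the other 22 genes tested at 16–18 hours were not called.

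Pepck2, which encodes a phosphoenolpyruvate carboxykinase of gluconeogenesis, was among the clearest decreases. It was also called lower in 9 of the 44 other knockdowns of 16–18 hours. It had 25.5 and 23.8 CPM in Camta RNAi embryos at 16–18 hours, against 94.4 and 87.5 CPM in mCherry embryos. Its level at 12–14 hours was 16.9 CPM in the Camta RNAi library, against 29.6 and 30.1 CPM in the mCherry libraries. In controls the transcript was thus higher at the later window by more than it was in Camta RNAi embryos. The log2 fold change was −1.89 (SE 0.09, adjusted p = 3.42e-05) at 16–18 hours and −0.82 (SE 0.13, adjusted p = 0.000208) at 12–14 hours, and the effect was larger at the later window (difference −1.06, adjusted p = 0.0349). Of 19 tested genes of gluconeogenesis and glycolysis Pepck2 was the only one called, at either window, and the list's medians were −0.08 at 16–18 hours and 0.04 at 12–14 hours. Of all tested genes 3.10% were called at 16–18 hours and 1.76% at 12–14 hours. Ass, the argininosuccinate synthase of arginine synthesis, had 30.0 and 32.3 CPM in Camta RNAi embryos at 16–18 hours, against 61.3 and 55.2 CPM in mCherry embryos (log2 fold change −0.91, adjusted p = 0.00206).

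Lsp1gamma, a hexamerin that the fat body of late larvae stores in the haemolymph, was higher in Camta RNAi embryos. At 16–18 hours it had 12.9 and 10.3 CPM in Camta RNAi embryos, against 1.34 and 1.78 CPM in mCherry embryos. The earlier window had 41.7 CPM of it in the Camta RNAi library, against 7.95 and 8.49 CPM in the mCherry libraries. The log2 fold changes were 2.88 (SE 0.21, adjusted p = 0.000455) and 2.34 (SE 0.12, adjusted p = 3.61e-13) at 16–18 and 12–14 hours. At 16–18 hours the 2 Camta RNAi libraries did not both lie above all 42 control libraries of the series. Lsp1gamma was the only gene called of 4 tested fat body genes at 16–18 hours and of 6 at 12–14 hours. The shares called of all tested genes were 3.10% and 1.76% at these windows. Smaller increases at both windows included the globin glob1 (0.53 and 0.57 at 16–18 and 12–14 hours), the odorant-binding protein Obp99c (0.52 and 0.77) and the neighbouring acyl-CoA-binding proteins Acbp3 (0.51 and 1.42) and Acbp6 (0.67 and 0.78), all on the log2 scale and all called. Set against all mCherry libraries of 12–14 hours, Acbp3 turned to −0.35 (adjusted p = 0.977).

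Large increases at both windows included TwdlJ, CG16704 and CG31219. TwdlJ, a Tweedle cuticle protein gene, had 51.7 and 49.5 CPM in Camta RNAi embryos at 16–18 hours, against 0.50 and 0.15 CPM in mCherry embryos. TwdlJ at 12–14 hours had 8.17 CPM in the Camta RNAi library, against 1.41 and 0.88 CPM in the mCherry libraries. It rose by 7.31 on the log2 scale at 16–18 hours (SE 0.25, adjusted p = 7.42e-06) and by 2.85 at 12–14 hours (SE 0.29, adjusted p = 2.07e-07), and its level at 16–18 hours was above all 130 other libraries of the window. CG16704 had 38.0 and 37.8 CPM in Camta RNAi embryos at 16–18 hours, against 3.22 and 3.17 CPM in mCherry embryos (log2 fold change 3.56, adjusted p = 7.42e-06), and CG31219 had 5.68 and 4.58 CPM, against 0.02 and 0.15 CPM (5.74, adjusted p = 0.000980). Both rose at 12–14 hours too, by 4.61 and 5.84. CG16704 was also called higher in 10 of the 44 other knockdowns of 16–18 hours, and CG31219 and TwdlJ in 2 each.

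A short stretch of arm 2L held 3 genes called at both windows. The antisense RNA gene asRNA:CR44975 (16697344 to 16697761) had 95 counts over the Camta RNAi libraries and 0 over the mCherry libraries at 16–18 hours, at least 35.8-fold higher against a floor of 3 counts over the group. In the earlier window asRNA:CR44975 had 377 counts in Camta RNAi and 2 over the mCherry libraries, a ratio of CPM of 360 (95% interval 98.9 to 2981, exact binomial, counting error only). CR43669, which begins 2159 bases further on, had 1.76 and 1.40 CPM in Camta RNAi embryos at 16–18 hours, against 0.02 and 0.09 CPM in mCherry embryos (log2 fold change 4.69, adjusted p = 0.00668). CG31808, another 3460 bases away, changed in the opposite direction, with 90.9 and 107 CPM in Camta RNAi embryos, against 170 and 189 CPM in mCherry embryos, at 16–18 hours (−0.86, adjusted p = 0.00396). CG31808 at 12–14 hours had 508 CPM in the Camta RNAi library, against 769 and 845 CPM in the mCherry libraries. Whether reads were counted by strand is not stated, so reads of an antisense gene and its partner may not have been kept apart.

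Other genes named by the size of their increase at 16–18 hours had few counts. lncRNA:CR46123 and lncRNA:CR46350 had 0 counts over the mCherry libraries and were at least 25.2-fold and 14.3-fold higher in Camta RNAi embryos. CG1850 had a CPM ratio of 46.3 (95% interval 12.4 to 389) and lncRNA:CR44459 of 31.7 (5.23 to 1294), from 82 and 28 counts in Camta RNAi embryos against 2 and 1 counts in mCherry embryos. asRNA:CR46487 had 2.89 and 3.44 CPM in Camta RNAi embryos, against 0.05 and 0.09 CPM in mCherry embryos (log2 fold change 5.44, adjusted p = 0.000956). The largest increases at 12–14 hours also included CG18233, at least 15.3-fold higher, and the sugar receptor gene Gr64f, at least 11.4-fold higher, each with 0 counts over the mCherry libraries. CG16995 and CG42792 were among the largest decreases of that window, with 0.04 and 0.07 CPM in the Camta RNAi library, against 0.42 to 0.89 CPM and 0.76 to 1.16 CPM in the mCherry libraries.

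Among the largest decreases at 16–18 hours, several were of genes with few counts in the controls. CG34105, elfless, whe and CG12491 had 0 counts over the Camta RNAi libraries and 75, 68, 46 and 44 counts over the mCherry libraries, so they were at least 22.1-fold, 20.1-fold, 13.6-fold and 12.98-fold lower. The odorant-binding protein genes Obp56g and Obp46a had 1 and 3 counts in Camta RNAi embryos, against 52 and 46 counts in mCherry embryos. Of these genes elfless was also called lower in 20 of the 44 other knockdowns, Obp56g in 11 and the rest in at most 5. CG13560 was the largest decrease of an abundant transcript, with 3.42 and 1.22 CPM in Camta RNAi embryos, against 146 and 139 CPM in mCherry embryos (log2 fold change −5.90, SE 0.28, adjusted p = 4.54e-05). It was also called lower in 15 of the 44 other knockdowns, so this decrease was shared with many of them. asRNA:CR43767 had 0.41 and 0.18 CPM in Camta RNAi embryos, against 4.61 and 4.52 CPM in mCherry embryos (−3.92, adjusted p = 0.00167), and was likewise lower in 15 others. The remaining genes named by this rule, CG33346, CG10081, asRNA:CR45214, asRNA:CR45129, CG10943, CG30091 and CG17681, had log2 fold changes between −5.11 and −2.22.

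Cytochrome P450 enzymes oxidise hormones, lipids and foreign compounds, and 9 of 74 tested P450 genes, of 86 listed, were higher and 4 lower in Camta RNAi embryos at 16–18 hours, beside 1.59% higher and 1.51% lower of all tested genes. The median of the list was −0.08. Cyp28d2 and Cyp28d1, which lie 1114 bases apart on 2L, moved in opposite directions. Cyp28d2 had 462 and 483 CPM in Camta RNAi embryos at 16–18 hours, against 136 and 153 CPM in mCherry embryos (log2 fold change 1.703, SE 0.09, adjusted p = 5.57e-05). Cyp28d1 had 114 and 112 CPM in Camta RNAi embryos, against 323 and 297 CPM in mCherry embryos (−1.46, SE 0.08, adjusted p = 6.70e-05). Both were far less abundant at 12–14 hours, where the changes were 1.51 and −1.43. CG10209 RNAi embryos, which share these controls, had values of 1.32 for Cyp28d2 and −1.58 for Cyp28d1 at 16–18 hours, and Fer1 RNAi embryos had 0.42 and −0.10. Cyp28d2 was called higher in 10 and Cyp28d1 lower in 9 of the 44 other knockdowns of 16–18 hours.

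A cluster of 9 P450 genes on 2R (14871366 to 14903095), all of them Cyp6a genes but Cyp317a1, had 5 higher and none lower at 16–18 hours. Cyp6a8 had 40.7 and 36.1 CPM in Camta RNAi embryos, against 5.827 and 5.903 CPM in mCherry embryos (log2 fold change 2.71, SE 0.11, adjusted p = 1.77e-05). Cyp6a8 at 12–14 hours had 11.2 CPM in the Camta RNAi library, against 7.91 and 10.6 CPM in the mCherry libraries, with no call (adjusted p = 0.854). The effect of Camta RNAi on Cyp6a8 thus differed between windows by 2.45 on the log2 scale (adjusted p = 0.0281). The other 2 knockdowns set against the same mCherry libraries also had higher Cyp6a8 at 16–18 hours, by 2.81 (Fer1) and 2.63 (CG10209), and Camta RNAi embryos differed from their mean by −0.02 (SE 0.09, adjusted p = 0.935). Cyp6a20, Cyp6a23, Cyp6a9 and Cyp6a17 were higher by 1.03, 1.08, 0.71 and 0.58. At 16–18 hours Cyp6a20 and Cyp6a23 were also called higher in 9 each of the 44 other knockdowns. Cyp6a8 was called higher in 12 of them, Cyp6a17 in 7 and Cyp6a9 in 6. Cyp6a20 was at 12–14 hours the single call in the cluster (0.64, adjusted p = 0.00704). Elsewhere Cyp4p2 had 54.1 and 51.3 CPM in Camta RNAi embryos at 16–18 hours, against 23.5 and 21.0 CPM in mCherry embryos (1.24), and it rose by 1.74 at 12–14 hours. Cyp309a2 fell at 12–14 hours, with 23.7 CPM in the Camta RNAi library against 79.9 and 73.5 CPM in the mCherry libraries (−1.69, adjusted p = 1.66e-10).

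Ecdysteroid kinase-like genes encode predicted small-molecule kinases, a family that includes the silkworm enzyme that phosphorylates ecdysteroids. Of 41 tested, 2 were higher and 8 lower in Camta RNAi embryos at 16–18 hours, beside 1.59% higher and 1.51% lower of all tested genes. The list median was −0.20 at 16–18 hours and 0.10 at 12–14 hours, where 3 were higher and 2 lower of 42. All 10 called at 16–18 hours lie in a cluster of 26 such genes on 3R (25270209 to 25331203), of which 23 were tested. CG11893 had 19.7 and 24.0 CPM in Camta RNAi embryos, against 0.40 and 0.49 CPM in mCherry embryos (log2 fold change 5.61, SE 0.20, adjusted p = 7.42e-06). CG11893 at 12–14 hours had 125 counts in the Camta RNAi library and 0 over the mCherry libraries, at least 79.5-fold higher. The other increase was CG31436, with 47.5 and 42.7 CPM in Camta RNAi embryos at 16–18 hours, against 17.0 and 17.6 CPM in mCherry embryos (1.38, adjusted p = 0.000323). For neither CG11893 nor CG31436 did both Camta RNAi libraries of 16–18 hours lie above all 42 control libraries of the series. The 8 that fell, CG10559, CG13658, CG10514, CG31104, CG31097, CG11892, CG31300 and CG31288, had values of −0.51 and lower, down to −1.34 for CG13658 and −1.4996 for CG10559. CG11892 was also called lower in 6 of the 44 other knockdowns of 16–18 hours, and CG10514 and CG31097 in 4 each. CG13658, CG31104 and CG31300 were lower in 3 each, CG31288 in 2 and CG10559 in none. CG11893 was also called higher in 4 others and CG31436 in 2. CG10514 and CG31300 also fell at 12–14 hours, by 1.58 and 1.25, while CG11893, CG31436 and CG31087 rose.

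**Figure D4:**
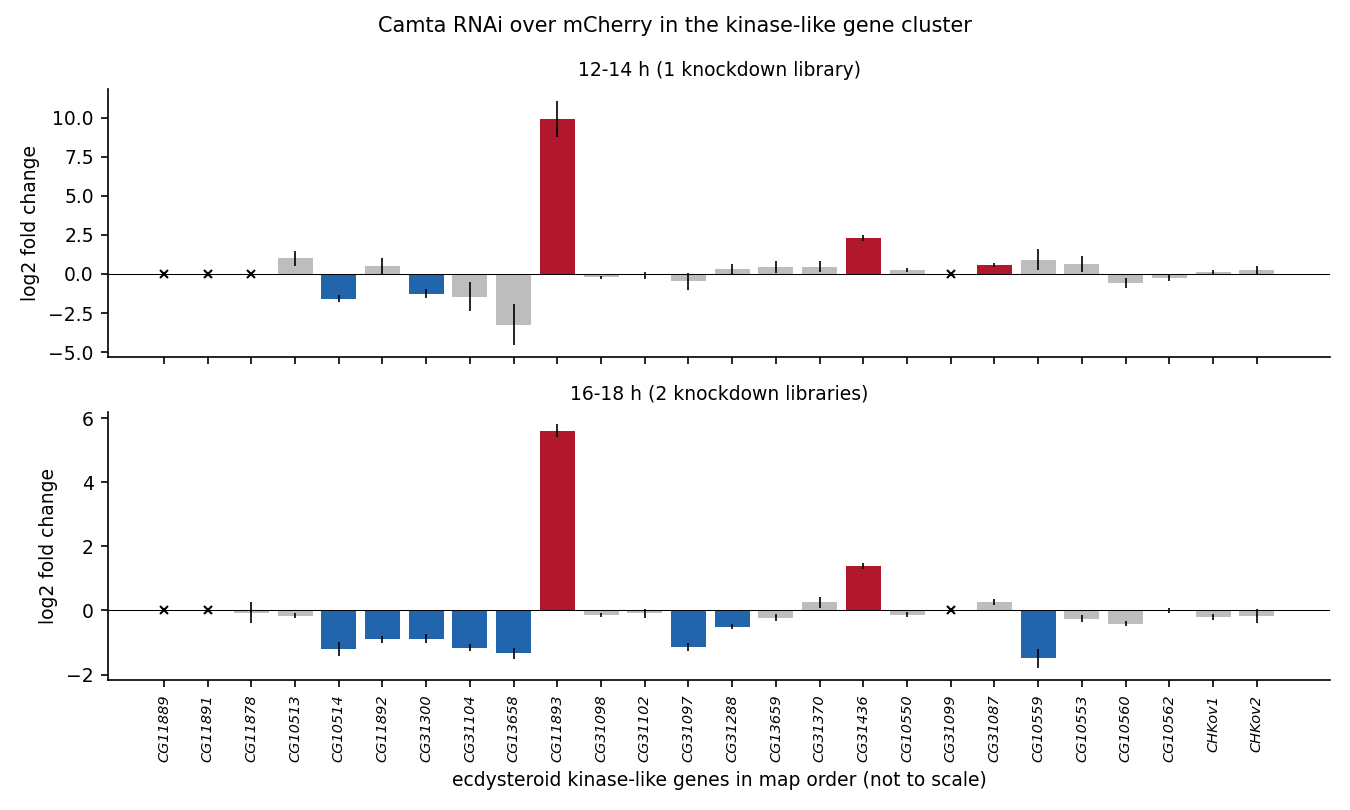
Log2 fold change of Camta RNAi over mCherry at 12–14 hours (top) and 16–18 hours (bottom) for the 26 ecdysteroid kinase-like genes of the 3R cluster in map order, with bars in red for genes called higher, blue for lower and grey for not called, lines for 1 SE and crosses for genes not tested. CG11893 (5.61) and CG31436 (1.38) are higher at 16–18 hours among neighbours of which 8 are lower, and the bar of CG11893 at 12–14 hours is a fitted value against controls with 0 counts and no bound.

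Other enzyme families also had calls, which are given beside the 3.10% of all tested genes called at 16–18 hours and the 1.76% called at 12–14 hours. Of 35 UDP-glycosyltransferase genes 1 was higher (Ugt35D1, 2.82) and 4 lower (Ugt49C1, Ugt35E1, Ugt303B3 and Ugt49B1, between −0.86 and −0.58) at 16–18 hours, with a median of −0.02. Ugt49B1 was the one called at 12–14 hours, with 31.1 CPM in the Camta RNAi library against 50.8 and 50.3 CPM in the mCherry libraries (−0.70). Of 35 glutathione S-transferase genes 1 was higher and 1 lower at 16–18 hours (median 0.03), and of 34 at 12–14 hours 3 were higher and 2 lower (median 0.01). Alkaline phosphatases, a list chosen after their values were seen, had 4 of 9 members lower at 16–18 hours. At 12–14 hours none of 10 was called by edgeR or DESeq2, and none had an unadjusted p under 0.05. Alp9 and its neighbour Alp10 had the largest values of the 4 (−1.48 and −1.40), followed by Alp8 (−1.07) and Alp4 (−0.77). Jheh2, a juvenile hormone epoxide hydrolase, had 28.6 and 27.3 CPM in Camta RNAi embryos at 16–18 hours, against 48.7 and 48.4 CPM in mCherry embryos (−0.80, adjusted p = 0.00209).

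Among cuticle genes, members of the Osiris and Tweedle families were higher at 16–18 hours in Camta RNAi embryos. Osiris genes, which are expressed while cuticle forms and of which 22 of 25 lie in 1 cluster on 3R, and Tweedle cuticle proteins were listed after their values were seen. Only 13 of the 25 Osiris genes passed the filter on low counts at 16–18 hours, several of them through the Camta RNAi libraries alone, so no share or median over them is given. Among those called higher were Osi15, with 6.36 and 14.5 CPM in Camta RNAi embryos against 1.31 and 0.33 CPM in mCherry embryos, and Osi14, with 5.54 and 14.6 CPM against 2.68 and 2.25 CPM. Of 22 tested at 12–14 hours none was called by edgeR or DESeq2, and 2 had an unadjusted p under 0.05. Osi6 had 5.47 and 82.7 CPM in Camta RNAi embryos, against 0.57 and 1.19 CPM in mCherry embryos (log2 fold change 5.61, SE 1.21, adjusted p = 0.0550). The 2 Camta RNAi libraries thus differed from each other more than the lower one did from the controls. Osi6 at 12–14 hours had 1403 CPM in the Camta RNAi library, against 1367 and 1183 CPM in the mCherry libraries, so its level was far lower at the later window in both groups. Over all control sets of 16–18 hours it ran between 0.13 and 522 CPM, and set against all mCherry libraries of the window its value was −0.63 (adjusted p = 0.898). Osi7, ImpL1 and CG6026, which also were among the largest increases, likewise changed sign against all mCherry libraries.

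Tweedle genes had 8 of 24 members higher and none lower at 16–18 hours, beside 1.59% higher and 1.51% lower of all tested genes. Members low in mCherry embryos, such as TwdlJ, could pass the filter through the Camta RNAi libraries. No median is thus given for that window, and the count is no measure of the family. At 12–14 hours 1 was higher and 2 lower of 26 (median −0.10), beside 0.883% and 0.874% of all tested genes. Besides TwdlJ, those higher at 16–18 hours included TwdlW, with 22.3 and 24.6 CPM in Camta RNAi embryos, against 10.1 and 10.3 CPM in mCherry embryos (1.20, adjusted p = 0.00134). Cuticle proteins of the Cpr family had 7 of 57 members higher and 3 lower at 16–18 hours, and none higher and 6 lower of 61 at 12–14 hours (median −0.09). At 16–18 hours the same limit holds for members low in mCherry embryos, such as Cpr66Cb, and no median is given. Cpr49Ad fell at both windows, with 27.0 and 20.05 CPM in Camta RNAi embryos at 16–18 hours, against 88.4 and 77.3 CPM in mCherry embryos (−1.82, adjusted p = 0.000512).

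Genes that change between the windows in normal development moved with these groups. In 16 libraries of 4 control sets, 319 genes rose and 315 fell by at least 2 on the log2 scale between 12–14 and 16–18 hours. Of the falling genes 245 passed the filter at 16–18 hours, 43 of them called higher and 1 lower in Camta RNAi embryos, and no median is given since low genes could pass through the libraries where they were higher. The rising genes had a median log2 fold change of −0.11 (319 tested, 15 higher and 43 lower). The medians at 12–14 hours were 0.06 for the falling genes, with 1 higher and 7 lower of 315, and −0.07 for the rising genes, with 9 higher and 8 lower of 292. Beside these counts, 1.59% of all tested genes were called higher and 1.51% lower at 16–18 hours, with a median of −0.0005. At 12–14 hours the shares were 0.883% and 0.874%, with a median of −0.007. On the log2(CPM + 1) scale the median level of all 315 falling genes at 16–18 hours was 1.43 and 1.66 in Camta RNAi embryos, against 1.05 and 0.75 in mCherry embryos. Of the 343 calls at 16–18 hours, 241 (118 higher and 123 lower) were of genes on neither list. The lists hold only genes that changed by at least 2 on the log2 scale, so a gene on neither may still change between the windows. Of the genes called at both windows, some had changes of similar size at both, such as Camta, Cam, CtBP, phr and eIF4E3. Others did not, such as TwdlJ (7.31 at 16–18 hours and 2.85 at 12–14 hours), CG13560 (−5.90 and −3.08), Pepck2 (−1.89 and −0.82) and Oseg4 (−1.52 and −0.83). These genes were picked, and this is a description only. The part of a difference in developmental age in the results at 16–18 hours was not tested.

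**Figure D5:**
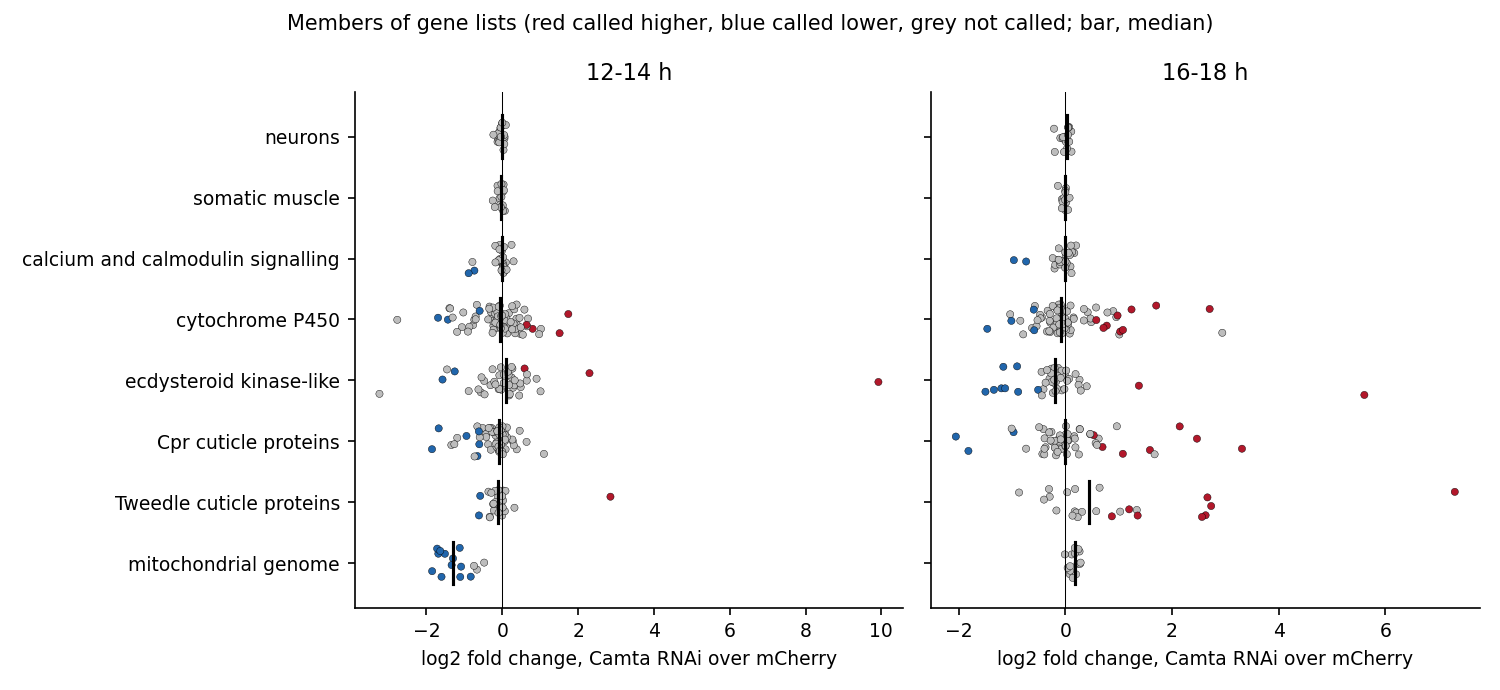
Log2 fold change of Camta RNAi over mCherry for each tested member of 8 gene lists at 12–14 hours (left) and 16–18 hours (right), with points in red for genes called higher, blue for lower and grey for not called, and a bar at each list's median. At 16–18 hours 8 of 24 Tweedle genes are higher, in a list chosen after its values were seen. Cuticle genes low in mCherry embryos could pass the filter through the Camta RNAi libraries. The bars of the Tweedle and Cpr lists at 16–18 hours are thus no measure of these families. Ecdysteroid kinase-like genes have 8 of 41 lower at 16–18 hours, and genes of the mitochondrial genome have 12 of 15 lower at 12–14 hours by edgeR. Over all tested genes, 1.59% are higher and 1.51% lower at 16–18 hours, and 0.874% are lower at 12–14 hours.

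Of 15 tested genes of the mitochondrial genome, 12 were lower in the Camta RNAi library at 12–14 hours by edgeR (median −1.30) and none by DESeq2. By edgeR 0.874% of all tested genes were called lower at that window, and their median was −0.007. None was called at 16–18 hours by either tool (median 0.18), and 1 had an unadjusted p under 0.05. Against Fer1 and CG10209 RNAi embryos of 16–18 hours 11 of the 15 were lower in Camta RNAi embryos (median −1.34), beside 4.04% of all genes tested in that comparison. mt:ATPase8, a subunit of the ATP synthase, had 44.0 CPM in the Camta RNAi library, against 187 and 97.1 CPM in the mCherry libraries. The mCherry libraries thus differed from each other, and the summed level of the list was 10991 CPM in the Camta RNAi library, against 24472 and 13504 CPM in mCherry. With both windows in 1 fit the value of mt:ATPase8 was −1.69 with an adjusted p of 0.213.

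The difference between the windows was itself called for 35 of 11965 genes (0.293%), 21 with a higher and 14 with a lower effect at 16–18 hours. The count was 100 without Camta RNAi replicate 1 of 16–18 hours and 17 without replicate 2, 54 and 20 without mCherry replicates 1 and 2 of that window, and 53 without mCherry replicate 2 of 12–14 hours. Without mCherry replicate 1 of 12–14 hours it was 40, with 18 higher and 22 lower, and DESeq2 gave 112 and the replicate block 370. CG12522 had the largest difference, 5.36 on the log2 scale (adjusted p = 0.0281). It had 0.33 CPM in the Camta RNAi library at 12–14 hours, against 11.7 and 10.6 CPM in the mCherry libraries, and 2.41 and 1.19 CPM in Camta RNAi embryos at 16–18 hours, against 1.69 and 1.28 CPM in mCherry embryos. Its decrease was thus seen at the earlier window, with overlapping groups at the later one. CG3819, higher at both windows, had a difference of −1.51 (adjusted p = 0.0808), with 9.77 CPM in the Camta RNAi library at 12–14 hours, against 2.02 and 2.41 CPM in mCherry, and 335 and 299 CPM in Camta RNAi embryos at 16–18 hours, against 232 and 182 CPM in mCherry embryos. CG42815 had a difference of −1.65 (adjusted p = 0.0295), with a decrease at 16–18 hours (−0.80, with 106 and 123 CPM in Camta RNAi embryos, against 190 and 207 CPM in mCherry embryos) and a value of 0.86 at 12–14 hours, which was not called (2.64 CPM in the Camta RNAi library, against 1.52 and 1.39 CPM in mCherry). Cyp4p1, the P450 gene 209 bases from Cyp4p2, was higher at 12–14 hours (0.80, adjusted p = 0.0172) and had −0.47 at 16–18 hours.

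Few marker genes of the main embryonic tissues were called. None of 20 neuronal, 15 somatic muscle, 12 glial and 14 tracheal and epidermal genes was called at either window by edgeR, 2 were called by DESeq2 at 16–18 hours, and 8 at 16–18 hours and 1 at 12–14 hours had an unadjusted p under 0.05. Their medians at 16–18 hours were 0.02, −0.004, −0.07 and 0.11. Haemocyte genes had 2 of 10 members lower at 16–18 hours (median −0.30), and midgut genes had 1 higher and 2 lower of 15 at 16–18 hours. Of all tested genes 1.59% were called higher and 1.51% lower at 16–18 hours, and 0.883% and 0.874% at 12–14 hours. Germ line genes had 1 of 10 higher at each window, pgc at 16–18 hours and AGO3 at 12–14 hours, with 9 of 10 values above 0 and medians of 0.28 and 0.16. The summed level of the germ line list was 317 and 340 CPM in Camta RNAi embryos at 16–18 hours, against 279 and 315 CPM in mCherry embryos, and 594 CPM in the Camta RNAi library at 12–14 hours, against 519 and 585 CPM in mCherry. Chosen after their values were seen, dhd, gnu, yl and exu, genes known for their transcripts in oocytes, were also called higher at 16–18 hours, dhd with 24.5 and 5.83 CPM in Camta RNAi embryos against 0.89 and 1.96 CPM in mCherry embryos. The part of maternal transcripts in the results was not tested. The summed level of the haemocyte list was 344 and 352 CPM in Camta RNAi embryos at 16–18 hours, against 433 and 424 CPM in mCherry embryos.

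By chromosome arm, the genes called at 16–18 hours were 1.06% of those tested on X, 2.80% on 2L, 4.71% on 2R, 3.08% on 3L and 3.46% on 3R. The shares at 12–14 hours were 0.212% on X, 2.45% on 2L, 2.15% on 2R, 1.71% on 3L and 1.66% on 3R. X thus had the lowest share of these 5 arms at both windows. On chromosome 4, with far fewer genes, none of 93 was called at 16–18 hours and none of 96 at 12–14 hours by edgeR or DESeq2. An unadjusted p under 0.05 was found for 2 and 5 of them, in the same order.

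Many of the genes called in Camta RNAi embryos moved in other knockdowns too. Of the 343 called at 16–18 hours, 27 (7.87%) were called the same way in none of the 44 other knockdowns and 97 in at least 5, with a median of 3. Beyond all 42 control libraries of the window lay 50 of the 343 (14.6%), 39 of them higher and 11 lower. Beyond all 130 other libraries lay 4, Cam, which was lower, and TwdlJ, CG11659 and CG9270, which were higher. CG11659 had 19.1 and 17.9 CPM in Camta RNAi embryos, against 6.62 and 5.46 CPM in mCherry embryos (1.61, adjusted p = 0.000880), and CG9270 had 40.6 and 40.5 CPM, against 26.9 and 27.6 CPM (0.57, adjusted p = 0.0105). In the earlier window 107 of the 205 (52.2%) lay beyond 10 control libraries, and 68 (33.2%) were called in none of 12 other knockdowns. The called genes had been chosen for differing from 2 of these control libraries at each window. How many of all tested genes lay beyond every control library was not computed, so these counts have no background beside them.

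Set directly against Fer1 and CG10209 RNAi embryos of 16–18 hours, 841 of 11373 genes were called (7.39%), 381 higher (3.35%) and 460 lower (4.04%) in Camta RNAi embryos, and 548 without Camta RNAi replicate 1. CG10209 RNAi embryos had many changes of their own, so the count of this comparison includes them. It uses the same 2 Camta RNAi libraries of 16–18 hours as the comparison with mCherry, so the comparison is no independent check of genes called there. Of the 70 genes called against mCherry at both windows, 51 were called the same way in this comparison. Among them phr was higher by 3.67 on the log2 scale (adjusted p = 3.52e-05), CG11893 by 6.12, TwdlJ by 6.29 and Cyp4p2 by 1.68, and CG31808 was lower by 1.55.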

How the data were processed

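The members, gene lists and comparisons were chosen with earlier results of these data known. RNA of whole embryos was sequenced as paired-end, strand-marking TruSeq libraries. The authors aligned reads with STAR 2.7.3a to dm6 and deposited raw counts per gene, and the labels name HTSeq 0.12.4 and DESeq2 1.24.0, while the study's methods also name featureCounts. Reads overlapping several genes were left out, and the strand setting is not given in the sources used here. Reads on no gene (6.47% to 7.90%) were left out of library sizes. Here counts were fitted per window with the quasi-likelihood test of edgeR 4.0.16 in R 4.3.3 (TMM, filterByExpr with a minimum count of 10), with Benjamini-Hochberg adjustment over all tested genes. Both windows were also fitted together for the mean and the difference, and the other knockdowns of the same control set with Camta RNAi at 16–18 hours. The fits were tested on simulated data. Named were the target, up to 15 genes per direction at 16–18 hours and up to 5 in the other comparisons by size of change with groups that do not overlap, and members of 21 lists, and 4 more lists and the genes described as called at both windows were chosen after their values were seen. Locations are those of the BDGP6 annotation, which shares its sequence with dm6. Alternatives were RLE size factors, no filter, DESeq2 1.42.0, a stricter threshold, a replicate block, joint fits, other controls and leaving out libraries. A Camta RNAi library of 0–1.5 hours was outside the comparisons.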

Additional observations from a re-analysis of the deposited data

Results flagged for a closer look

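For 35 genes the effect of Camta RNAi at 16–18 hours differed from that at 12–14 hours by the test of the difference itself. The log2 differences of the genes named for their size were 5.36 for CG12522 (adjusted p = 0.0281), 4.45 for TwdlJ (adjusted p = 0.0281), 4.20 for CG13159 (adjusted p = 0.0349), 3.98 for the cuticle gene Tb (adjusted p = 0.0349) and 3.87 for Osi18 (adjusted p = 0.0889). In the other direction they were −3.11 for CG6839 (adjusted p = 0.0830), −1.73 for the glutathione S-transferase GstD5 (adjusted p = 0.0808), −1.65 for CG42815 (adjusted p = 0.0295), −1.61 for CR43670 (adjusted p = 0.0808) and −1.51 for CG3819 (adjusted p = 0.0808). CG13159 had 9.44 and 18.7 CPM in Camta RNAi embryos at 16–18 hours, against 1.04 and 0.64 CPM in mCherry embryos, and 1342 CPM in the Camta RNAi library at 12–14 hours, against 1467 and 1477 CPM in mCherry. CG6839 had 0.63 CPM in the Camta RNAi library at 12–14 hours, against 0.02 and 0.10 CPM in mCherry, and about 20 CPM in every library at 16–18 hours.

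Among the control libraries of the other windows, 1 of 8 at 6–8 hours stood far from the rest for Cam, with 1238 CPM against 743 CPM in the next highest. About 1 in 20 groups would be marked in this way by chance, and 8 were examined.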

How the results depend on the processing

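At 16–18 hours 343 calls became 530 with no filter on low counts, 571 with the replicate block (331 higher, 240 lower) and 180 against all mCherry libraries of the window (129 higher, 51 lower, 119 of them among the 343), and ranged from 260 to 448 as each library was left out. Replicate numbers paired 2 libraries per group at r = 0.19 over 11060 genes and nothing else links them, so they share only a number. At 12–14 hours 205 became 83 with DESeq2, 84 in 1 fit of both windows, 9 against all mCherry libraries, and 77 to 155 in that joint fit without either control. For Camta at 12–14 hours the values no longer called were −0.89 in the joint fit, −1.27 against all mCherry libraries, and −0.97 to −0.80 without either control. The mean of both windows had 288 calls, and 458 with no filter, 184 at an adjusted p of at most 0.05, 570 with the replicate block, and 185 to 345 without a library (185 without Camta RNAi replicate 2). The difference between windows had 35 calls, and 168 with no filter, 112 with DESeq2, 18 at the stricter threshold, 370 with the block, and 17 to 100 without a library. Against the other knockdowns the range was 548 to 955, the lowest without Camta RNAi replicate 1. Against all mCherry libraries at 16–18 hours the direction turned for CG6026 (−0.30), ImpL1 (−0.24), Osi6 (−0.63), Osi7 (−0.83), Osi18 (−1.19), CG13159 (−0.22) and Tb (−0.88), and at 12–14 hours for Acbp3 (−0.35), and Osi6 against the other knockdowns ranged from −0.49 without Camta RNAi replicate 2 to 3.44 without replicate 1. The cause of these changes was not tested. Of single values at 16–18 hours 947 kept their call, 136 lost it and 7 turned, and at 12–14 hours 337 kept it, 148 lost it and 1 turned. Leaving out a control of 12–14 hours in a fit of that window alone leaves no residual degrees of freedom and was not run, and promoter sequences were not used here. Depth limits what can be said of genes with few counts.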

Other observations

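A Camta RNAi library of 0–1.5 hours after egg laying, outside the windows compared, had 101 CPM of Camta on the scale of all libraries, against 91.7 and 98.2 CPM in its mCherry libraries. Cam had 858 CPM in the same library, against 803 and 871 CPM in mCherry. BomBc2, a gene of the bomanin family of immune-induced peptides, had 1.01 CPM in the Camta RNAi library at 12–14 hours, against 7.95 and 7.19 CPM in the mCherry libraries (log2 fold change −2.89, adjusted p = 1.12e-07 by edgeR), and 1.78 and 0.76 CPM in Camta RNAi embryos at 16–18 hours, against 0.89 and 0.60 CPM in mCherry embryos, without a call. BomBc2 was also called lower in 6 of the 12 other knockdowns of 12–14 hours. Of the bomanin and antimicrobial peptide genes, 15 of 26 passed the filter at 16–18 hours, where BomS1 was the one called (1.18, adjusted p = 0.0964), with 27.2 and 15.6 CPM in Camta RNAi embryos against 12.1 and 6.76 CPM in mCherry embryos and 13 of 15 values above 0. At 12–14 hours BomBc2 and BomS2 (−1.33, adjusted p = 0.0136) were lower of 13 tested. The shares called of all tested genes were 3.10% at 16–18 hours and 1.76% at 12–14 hours.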
